A study of Mus musculus with 30 samples.

Results

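Double knockdown of FoxK1 and FoxK2 (DKD) was compared with knockdown of FoxK1 alone (FoxK1 KD) in basal AML12 cells, a line of immortalized mouse hepatocytes, so that the comparison reads the loss of FoxK2 in cells already short of FoxK1. Its members were the 8 samples that the labels give as 1 of these 2 genotypes without treatment, 4 DKD and 4 FoxK1 KD, out of 30 in the series. The knockdowns were made by transient siRNA transfection, so the cells were transfected populations and not clones, and all groups were starved of serum overnight before RNA was taken. Basal samples are labelled with time 0, whereas the study's methods describe a mock treatment. The same genotypes after 100 nM insulin for 6 h (3 DKD and 4 FoxK1 KD), and 4 FoxK2 KD and 4 Control samples at basal, served for comparison. Nothing in the labels says whether replicates were separate cultures, so that the p-values measure the spread between these samples, which may be technical.

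FoxK1 and FoxK2 are forkhead transcription factors that also carry a forkhead-associated domain, which binds phosphorylated proteins. Both are known to recruit the Sin3 corepressor with its histone deacetylases, to bind the deubiquitinase BAP1, to restrain genes of autophagy and to promote glycolysis. They bind overlapping sites, so that either can occupy a promoter that the other has left.

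The targeted genes were measured first. Foxk2 (chromosome 11, 121259990 to 121309896, GRCm38) was counted at 101, 116, 128 and 124 CPM in the FoxK1 KD samples and at 52, 54.7, 52.3 and 41.9 CPM in the DKD samples, where CPM are counts scaled to the normalized library size. The groups did not overlap, and the log2 fold change of DKD against FoxK1 KD was -1.23 (SE 0.09), with an adjusted p of 3.71e-11 (quasi-likelihood test of edgeR, adjusted by Benjamini-Hochberg). Foxk1 (chromosome 5, 142401497 to 142462011) stood at 38.9, 27.4, 38.8 and 42 CPM in FoxK1 KD and at 44.2, 49.7, 49 and 42.9 CPM in DKD cells. It was 0.32 (SE 0.13) higher on the log2 scale in DKD cells, which did not pass the test at an adjusted p of 0.0582, although each DKD sample lay above each FoxK1 KD sample. Control cells held 81.4 CPM of Foxk1, above every sample of both genotypes, and 140 CPM of Foxk2.

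The 8 libraries held 2141460 to 4423978 counts on genes. Of 10 hepatocyte markers 9 were expressed highly enough to be tested. All 10 summed to 2800 to 2890 CPM in DKD and 2360 to 2560 CPM in FoxK1 KD cells, on raw library totals. Most of this was Krt18 (1340 to 1500 CPM in DKD, 992 to 1100 in FoxK1 KD) and Krt8 (694 to 864 and 476 to 549). Apob was lower in DKD (424 to 471 against 529 to 808 CPM), and Alb was at 3.83 to 7.05 and 2.93 to 24.4 CPM. Of the 9 tested, 3 rose and 1 fell as counted, against 13.8% and 12.5% of all tested genes. With the trend on GC content and length, described below, removed, 0 passed either way, against 4.93% and 4.74% of all genes. Cholangiocyte markers, several of which AML12 cells express, summed to 1850 to 2110 CPM in DKD and 1490 to 1860 CPM in FoxK1 KD cells. The 10 stellate and fibroblast markers summed to at most 1.47 CPM in any of the 8 libraries with 4 of them at 0 in all, and the 7 endothelial markers to at most 1.47 CPM with 5 at 0. Macrophage and blood markers lay between 15.9 and 22.2 CPM with 4 of 8 at 0, and Csf1r, the receptor for CSF-1, carried 15.4 to 21.5 CPM of this. Fewer transcripts per cell and fewer cells carrying a transcript cannot be told apart in bulk RNA.

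One feature of the libraries ran with the genotype and bears on every result. Across 11346 tested genes with known sequence composition, the log2 fold change of DKD against FoxK1 KD correlated with the GC content of the transcript at Spearman's rho = 0.6 and with transcript length at -0.35. Within single libraries, the deviation of each gene from its mean over the 30 samples correlated with GC content at -0.21, -0.5, -0.2 and -0.25 in FoxK1 KD and at 0.45, 0.39, 0.42 and 0.19 in DKD replicates 1 to 4. The groups did not overlap (exact permutation test, two-sided p = 0.0286, the smallest that the 70 splits of 8 samples allow). In the fifth of genes with the lowest GC content, 781 of 2270 were downregulated and 32 upregulated in DKD cells, and in the fifth with the highest, 13 of 2269 were downregulated and 770 upregulated. After insulin the same contrast showed no such gradient (rho = 0.02). The labels name no batch, and a difference in library composition and the loss of FoxK2 cannot be told apart by this design. Counts of called genes are therefore given in 2 fits, as counted and with a per-library trend on GC content and transcript length removed. Values of single genes are as counted unless the second fit is named. That fit also removes any true response that follows base composition.

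**Figure D1:**
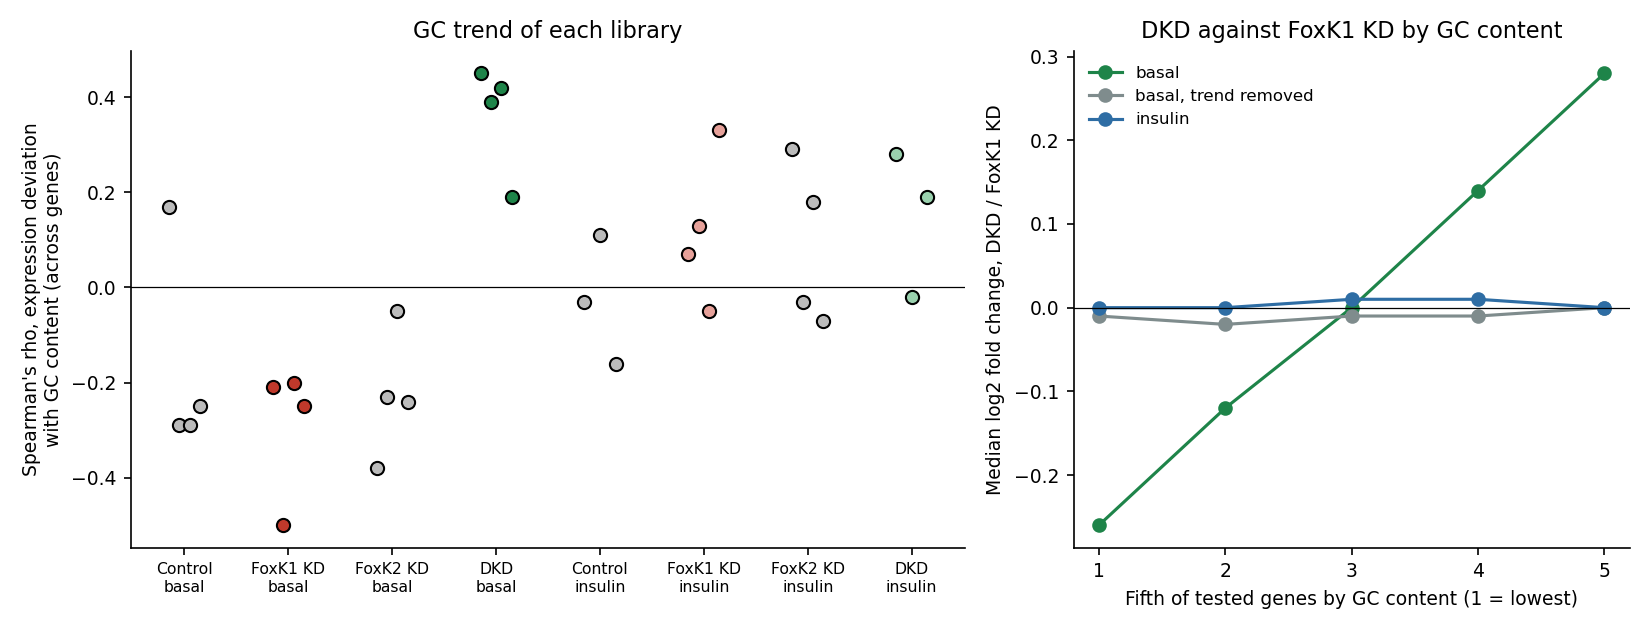
Left, Spearman's rho between GC content and each gene's log2 deviation from its mean over 30 samples, 1 point per library, with FoxK1 KD in red, DKD in green and the other groups in grey. Right, median log2 fold change of DKD over FoxK1 KD in 5 equal bins of the tested genes by GC content: the basal line climbs from -0.26 to 0.28, while the insulin line and the trend-removed line stay within 0.02 of 0.

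Of 11368 tested genes, 2991 (26.3%) differed between DKD and FoxK1 KD cells at an adjusted p below 0.05, 1565 upregulated (13.8%) and 1426 downregulated (12.5%). Most differences were small: 682 genes (6.0%) also passed a fold change of 1.5, and standard errors of the log2 fold changes had a median of 0.13. With the GC and length trend removed, 560 genes were upregulated (4.93%) and 539 downregulated (4.74%), 9.67% together. The 2 fits shared 411 upregulated (3.62%) and 377 downregulated genes (3.32%), 6.93% of those tested, and no gene was called in opposite directions. The counts in gene lists are read against these shares of all genes. FoxK1 KD replicate 2, the library with the steepest GC trend of its group, moved the result most: without it 1022 genes were upregulated and 1033 downregulated. The 8 samples' values did not overlap between the groups in 3300 of all tested genes (29.0%), of which 2470 were among the called genes.

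The same contrast after insulin, in 7 samples that the basal comparison did not use, called 40 genes (0.352%), 22 up (0.194%) and 18 down (0.158%). With the trend removed it called 60 (0.528%), 29 up (0.255%) and 31 down (0.273%). Of the 40 genes of the first fit, 13 were called at basal in the same direction and 0 in the opposite one. Of all genes, 13.8% were called up and 12.5% down at basal. The same sign at basal was held by 37 of the 40. In the other direction, 1774 of the 2991 genes called at basal had the same sign after insulin. Of the 788 genes called in both basal fits, 507 did. Across all tested genes, the basal and insulin log2 fold changes correlated weakly (rho = 0.15, across genes, which are not independent). The difference between the basal and insulin effects was significant for 699 genes (6.15%) in the model's interaction term, higher after insulin in 361 (3.18%) and lower in 338 (2.97%), and for 164 (1.44%) with the trend removed, 80 (0.704%) and 84 (0.739%).

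Of the 13 genes called at basal and after insulin as counted, 9 were also called at basal with the trend removed, of which 8 are described here: Foxk2, Cttnbp2, Ncam1 and Tacc2 were downregulated, and Tnfrsf9, C3, Pex5 and Dtx4 were upregulated. Those outside the rule for named genes were picked after their values were seen. Cttnbp2 encodes a cortactin-binding protein of the actin cytoskeleton. It was counted at 95.7, 115, 95.3 and 102 CPM in FoxK1 KD and at 62.9, 61.4, 57.4 and 59.8 CPM in basal DKD cells, without overlap. Its log2 fold change was -0.75 (SE 0.1, adjusted p = 4.85e-06) at basal, -0.68 (SE 0.09) with the trend removed and -1 (SE 0.11, adjusted p = 1.56e-06) after insulin. In Control and FoxK2 KD cells it lay at 69.7 and 62.2 CPM, so that its mean was highest in FoxK1 KD cells among the basal groups. Without FoxK1 knockdown the FoxK2 siRNA gave a log2 fold change of -0.17 for Cttnbp2, and the 2 effects differed (adjusted p = 0.00907, and 0.0348 with the trend removed).

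Tnfrsf9, which encodes the costimulatory receptor 4-1BB, was at 19.9, 13.5, 17.4 and 18.2 CPM in FoxK1 KD and at 33, 28.2, 25.4 and 36.5 CPM in DKD cells. Every DKD sample was above every FoxK1 KD sample, with a log2 fold change of 0.84 (SE 0.13, adjusted p = 4.11e-05) at basal and 0.71 (SE 0.13, adjusted p = 0.00759) after insulin. C3, the central complement component secreted by hepatocytes, was at 365, 295, 282 and 483 CPM in FoxK1 KD and at 661, 601, 727 and 556 CPM in DKD cells. It was upregulated, on the log2 scale, by 0.83 (SE 0.15, adjusted p = 0.00022) at basal, by 0.74 with the trend removed and by 0.76 (SE 0.16, adjusted p = 0.0176) after insulin. C3 also rose when FoxK2 was knocked down in cells with FoxK1, by 0.97 (adjusted p = 0.000938), and the difference between these 2 effects did not pass (-0.14, adjusted p = 0.702). Tlr2, a receptor for bacterial lipoproteins, was upregulated at basal (0.47, adjusted p = 0.013) and after insulin (0.83, adjusted p = 0.00759), but at 0.42 it missed the threshold once the trend was removed (adjusted p = 0.0518).

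Pex5, the import receptor for peroxisomal enzymes, was at 69.9, 57.1, 76.2 and 73.6 CPM in FoxK1 KD and at 105, 108, 93.9 and 99.9 CPM in DKD cells. The groups did not overlap, and Pex5 rose by 0.56 (SE 0.09, adjusted p = 3.51e-05) at basal, 0.34 with the trend removed and 0.42 (adjusted p = 0.0408) after insulin. Dtx4, a Deltex E3 ubiquitin ligase, rose by 0.38, 0.34 and 0.47 in the same order. Ncam1, a neural cell adhesion molecule, changed by -0.45, -0.38 and -0.51, and Tacc2, a centrosomal coiled-coil protein, by -0.34, -0.35 and -0.38. For none of these genes did the interaction of genotype and insulin pass the threshold, with adjusted p from 0.336 upward. Igf1r, the IGF-1 receptor, fell by 0.32 on the log2 scale at basal (adjusted p = 0.005) and by 0.49 after insulin (adjusted p = 0.00759), but its -0.14 in the trend-removed basal fit did not pass.

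**Figure D2:**
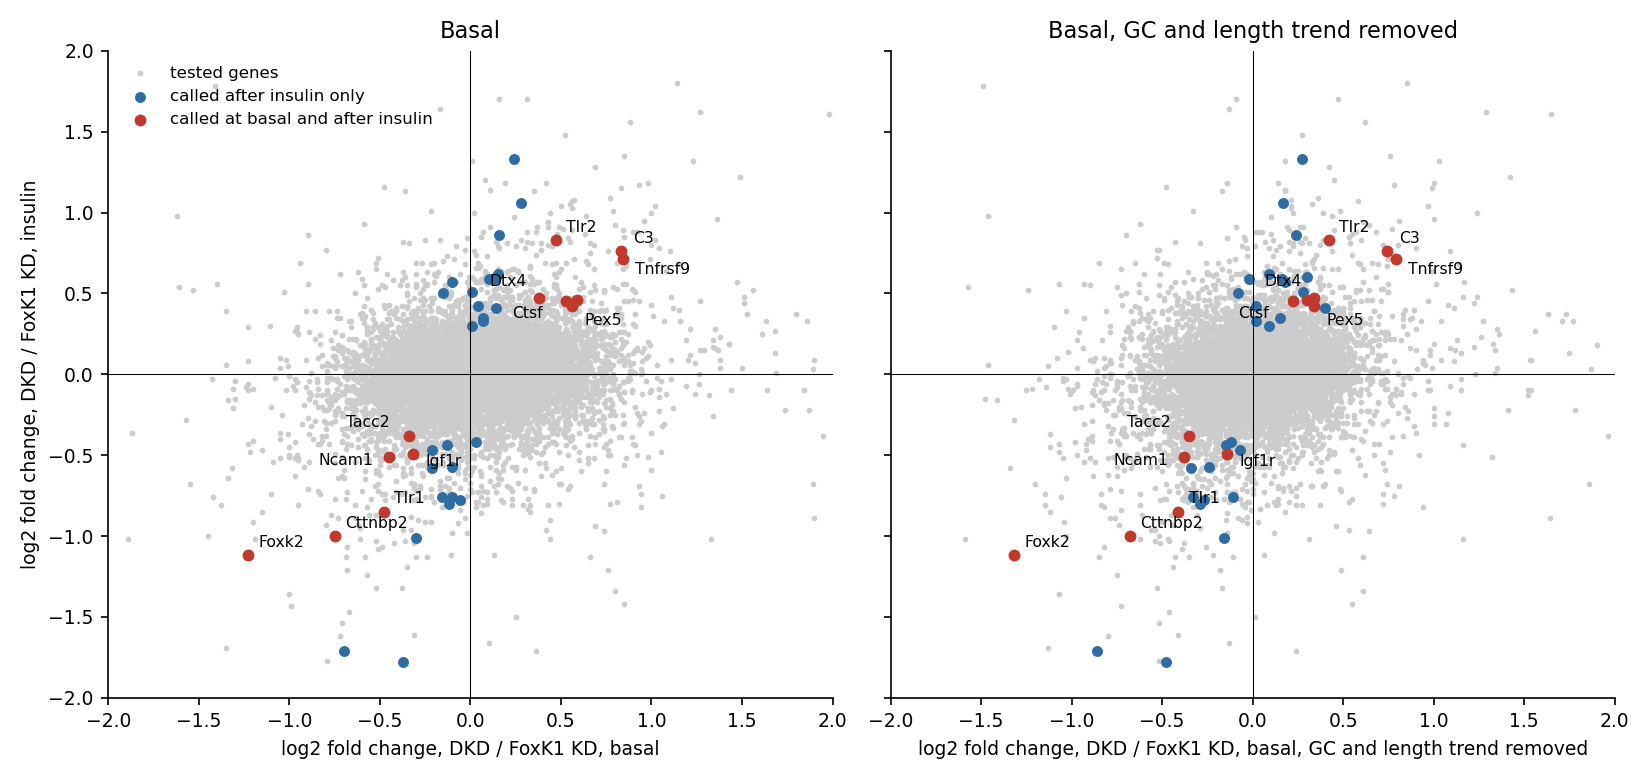
Log2 fold change of DKD over FoxK1 KD after insulin (vertical) against basal (horizontal), 1 point per tested gene, as counted on the left and with the GC and length trend removed on the right. The 13 genes called at basal and after insulin (red, 12 of them named) all lie in the lower left or upper right quadrant, and the axes leave out genes beyond 2 in either direction.

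Upstream sequence is shown for the genes of this set that held the forkhead core letters TGTTT (or AAACA on the other strand) in the 250 bases before a RefSeq start. Windows were found for 8740 of the 11368 tested genes. Of the 9 genes, Cttnbp2, Tnfrsf9 and Tacc2 had a match, marked by capitals, in at least 1 window. They are written 5′ to 3′ on the strand of the gene from GRCm38.p6, at chr6:18514870-18515119 (minus strand), chr4:150919905-150920154 (plus) and chr7:130577188-130577437 (plus).
Cttnbp2: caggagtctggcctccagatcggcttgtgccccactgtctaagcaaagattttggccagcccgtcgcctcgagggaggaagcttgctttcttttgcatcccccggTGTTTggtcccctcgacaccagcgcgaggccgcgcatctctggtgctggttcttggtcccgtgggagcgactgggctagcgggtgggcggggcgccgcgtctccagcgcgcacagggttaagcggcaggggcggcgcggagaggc
Tnfrsf9: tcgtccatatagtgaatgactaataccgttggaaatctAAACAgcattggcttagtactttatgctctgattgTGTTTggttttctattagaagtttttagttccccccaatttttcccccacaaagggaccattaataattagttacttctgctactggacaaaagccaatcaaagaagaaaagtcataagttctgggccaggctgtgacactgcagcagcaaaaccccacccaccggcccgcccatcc
Tacc2: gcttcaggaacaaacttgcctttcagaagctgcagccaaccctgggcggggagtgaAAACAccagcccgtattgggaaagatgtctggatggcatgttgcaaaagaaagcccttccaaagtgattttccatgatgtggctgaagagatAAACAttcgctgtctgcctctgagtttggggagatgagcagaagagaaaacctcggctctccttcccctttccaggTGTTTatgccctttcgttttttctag

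These 5 letters are common: 37.8% of tested genes with a window held them, 36.7% of the upregulated and 36.8% of the downregulated ones, and among genes called in both fits 38.5% and 36%. The longer forkhead site TGTTTAC, searched on both strands and containing the core, was in the windows of 2.76% of tested, 2.4% of upregulated and 1.8% of downregulated genes. In both fits these shares were 3.24% and 2.12%. Such a match is a description of the letters and not a binding site.

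**Figure D3:**
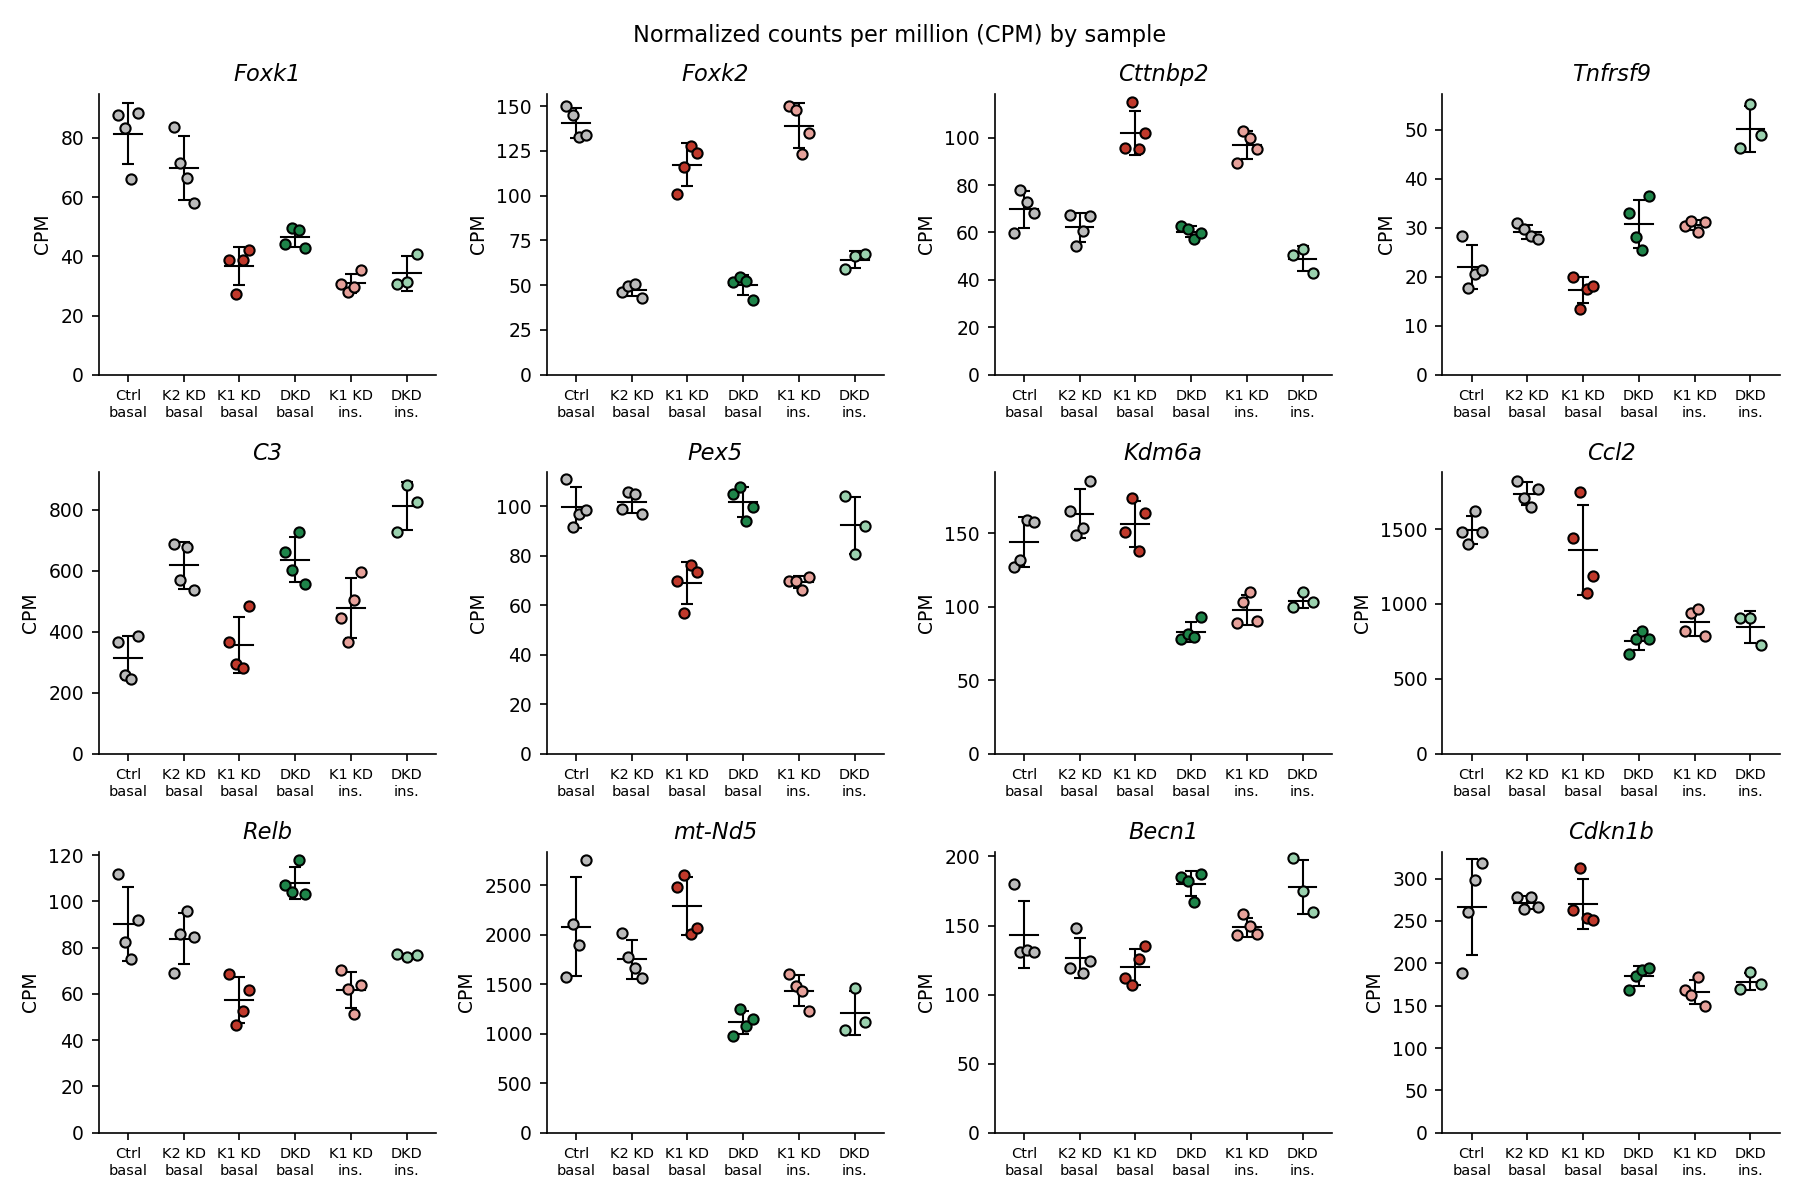
CPM of 12 genes in every sample of 6 groups, with the mean (line) and SD (bar) of each, from left to right Control, FoxK2 KD, FoxK1 KD and DKD at basal, then FoxK1 KD and DKD after insulin. Foxk2, Cttnbp2, Tnfrsf9, C3 and Pex5 separate FoxK1 KD from DKD at basal and after insulin, while in Kdm6a, Ccl2 and Cdkn1b the groups are apart at basal and overlap after insulin.

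Transcripts of the mitochondrial genome, which encode subunits of the respiratory chain and the mitochondrial rRNAs, were lower in DKD cells. Of 15 listed, 13 could be tested, and 9 were downregulated in DKD cells and 0 upregulated, against 12.5% of all genes downregulated. With the trend removed 8 of these remained downregulated, and leaving out each of the 8 samples in turn gave 8 to 9. The median log2 fold change was -0.86, and -0.6 with the trend removed, beside 0.01 and -0.01 over all tested genes. mt-Nd5, a subunit of complex I, was at 2480, 2600, 2010 and 2070 CPM in FoxK1 KD and at 978, 1250, 1080 and 1150 CPM in DKD cells. The groups did not overlap, and the log2 fold change was -1.04 (SE 0.12, adjusted p = 9.73e-07). At basal, Control cells held 2080 CPM and FoxK2 KD cells 1750 CPM of mt-Nd5, both above every DKD sample. The low level was not particular to basal DKD cells, which averaged 1120 CPM. After insulin mt-Nd5 averaged 1320 CPM in Control, 1440 in FoxK1 KD, 1260 in FoxK2 KD and 1210 in DKD cells. mt-Nd4 changed by -1.2 (SE 0.16), mt-Nd6 by -0.9 (SE 0.11) and mt-Cytb, the core of complex III, by -0.86 (SE 0.13). The 4 that did not pass, named after their values were seen, were mt-Nd3, mt-Co2, mt-Co3 and mt-Atp6, at 0.08, 0.43, 0.83 and 0.51. Transcripts of the mitochondrial genome are poor in GC, with a median of 35.98%, and together they took 1.71 to 2.43% of counts in FoxK1 KD and 0.989 to 1.26% in DKD libraries.

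After insulin 0 of the 13 passed edgeR's test, with a median of -0.12. For mt-Nd5 the insulin effect differed from the basal one (0.78, adjusted p = 0.0118, and 0.0657 with the trend removed), and insulin-treated FoxK1 KD cells held 1230 to 1600 CPM. Nuclear genes of the respiratory chain showed no common direction as counted, and are read against 13.8% of all genes upregulated and 12.5% downregulated. Of 35 nuclear complex I subunits 5 were upregulated and 7 downregulated, and of 37 subunits of complexes III to V 4 and 6. With the trend removed these counts were 1 and 6, and 1 and 8, against 4.93% and 4.74% of all genes. Ndufb7 rose from 12.5 to 23.3 CPM in FoxK1 KD to 46 to 67.8 CPM in DKD cells (log2 fold change 1.38, SE 0.23, adjusted p = 5.59e-05). Ndufa4, Cox7b and Cox17 fell by 0.58, 0.64 and 0.65 on the log2 scale, while Cox6b1 rose by 0.94, and all 4 passed in both fits.

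Of 31 genes of mitochondrial dynamics and import 9 rose and 3 fell, against 13.8% and 12.5% of all genes, and 5 and 0 with the trend removed, against 4.93% and 4.74%. Mtch1, an insertase of the outer membrane, was at 113 to 122 CPM in FoxK1 KD and at 187 to 213 CPM in DKD cells (0.79, SE 0.11, adjusted p = 4.67e-06). After insulin Mtch1 did not pass edgeR's test (0.06, adjusted p = 0.924). Its insulin effect differed from the basal one (-0.73, adjusted p = 0.00681, and -0.44, adjusted p = 0.0475 with the trend removed). Letm1, of the inner membrane, rose by 0.41 and Phb, a prohibitin, by 0.63 in the main fit, and both also passed with the trend removed. Timm50, of the inner membrane translocase, rose by 0.53 as counted, but its 0.16 with the trend removed did not pass (adjusted p = 0.29). Of 26 genes of the TCA cycle 5 rose and 2 fell, and 3 and 1 with the trend removed. Sdha, the catalytic subunit of succinate dehydrogenase, rose by 0.29 and Dlst, of the 2-oxoglutarate dehydrogenase complex, by 0.32, whereas Dld, the shared dihydrolipoamide dehydrogenase, fell by 0.42 on the log2 scale.

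NF-kB drives transcription of inflammatory and acute-phase genes. Of 25 chemokines and NF-kB feedback genes tested, 10 were upregulated and 2 downregulated, against 13.8% and 12.5% of all genes, and with the trend removed 8 and 1, against 4.93% and 4.74%, with 5 upregulated and 1 downregulated in both fits. The median log2 fold change was 0.16, 0.17 with the trend removed and 0.17 after insulin, where 1 of the 25, Vcam1, was upregulated and 0 were downregulated, against 0.194% and 0.158% of all genes. Relb, the partner of p52 in the noncanonical NF-kB pathway, was at 68.8, 46.5, 52.5 and 61.5 CPM in FoxK1 KD and at 107, 104, 118 and 103 CPM in DKD cells. It rose by 0.9 (SE 0.12, adjusted p = 6.2e-06), without overlap, and by 0.65 (adjusted p = 0.000133) with the trend removed. Tnip1, a partner of the ubiquitin editor A20, rose by 0.74 (SE 0.09, adjusted p = 1.87e-06), and by 0.45 with the trend removed. Lcn2, the iron-binding acute-phase protein lipocalin 2, went from 12.9 to 30 CPM in FoxK1 KD to 46.2 to 65.5 CPM in DKD cells (1.27, SE 0.22), and its value with the trend removed was 0.98. After insulin Relb, Tnip1 and Lcn2 did not pass, at 0.31, 0.27 and 0.15 (adjusted p = 0.452, 0.345 and 0.902). For these 3 genes the insulin effect differed from the basal one (-0.6, -0.47 and -1.12, adjusted p = 0.0486, 0.0415 and 0.0316), but not with the trend removed (adjusted p = 0.318, 0.599 and 0.154). The other 2 of the 5 upregulated in both fits, named after their values were seen, were Nfkbie, an inhibitor of NF-kB, and Tnfaip2, at 0.62 and 0.99.

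Ccl2, the monocyte chemoattractant, moved the other way. It was at 1440, 1750, 1070 and 1190 CPM in FoxK1 KD and at 665, 763, 820 and 769 CPM in DKD cells. These did not overlap, and the log2 fold change was -0.85 (SE 0.11, adjusted p = 4.74e-06), -0.83 with the trend removed. FoxK2 siRNA in cells with FoxK1 gave 0.22 for Ccl2, and the difference between the 2 effects was significant (-1.07, adjusted p = 0.000274, and 1.94e-05 with the trend removed). After insulin Ccl2 was at 785 to 968 CPM in FoxK1 KD and 724 to 907 CPM in DKD cells, with a log2 fold change of -0.05 (adjusted p = 0.944). Control and FoxK2 KD cells averaged 1490 and 1740 CPM of Ccl2 at basal, and 902 and 883 CPM after insulin. The level in basal DKD cells was thus nearer to that of all insulin-treated groups than to the other basal groups. Interferon-stimulated genes, for comparison, gave 2 up and 3 down of 17, against 13.8% and 12.5% of all genes. With the trend removed these counts were 0 and 1, against 4.93% and 4.74% of all genes. The summed macrophage and blood markers were 15.9 to 18.2 CPM in DKD and 17.6 to 22.2 CPM in FoxK1 KD libraries, of which Csf1r made up 15.4 to 16.7 and 16 to 21.5 CPM, with the other 7 at or near 0.

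**Figure D4:**
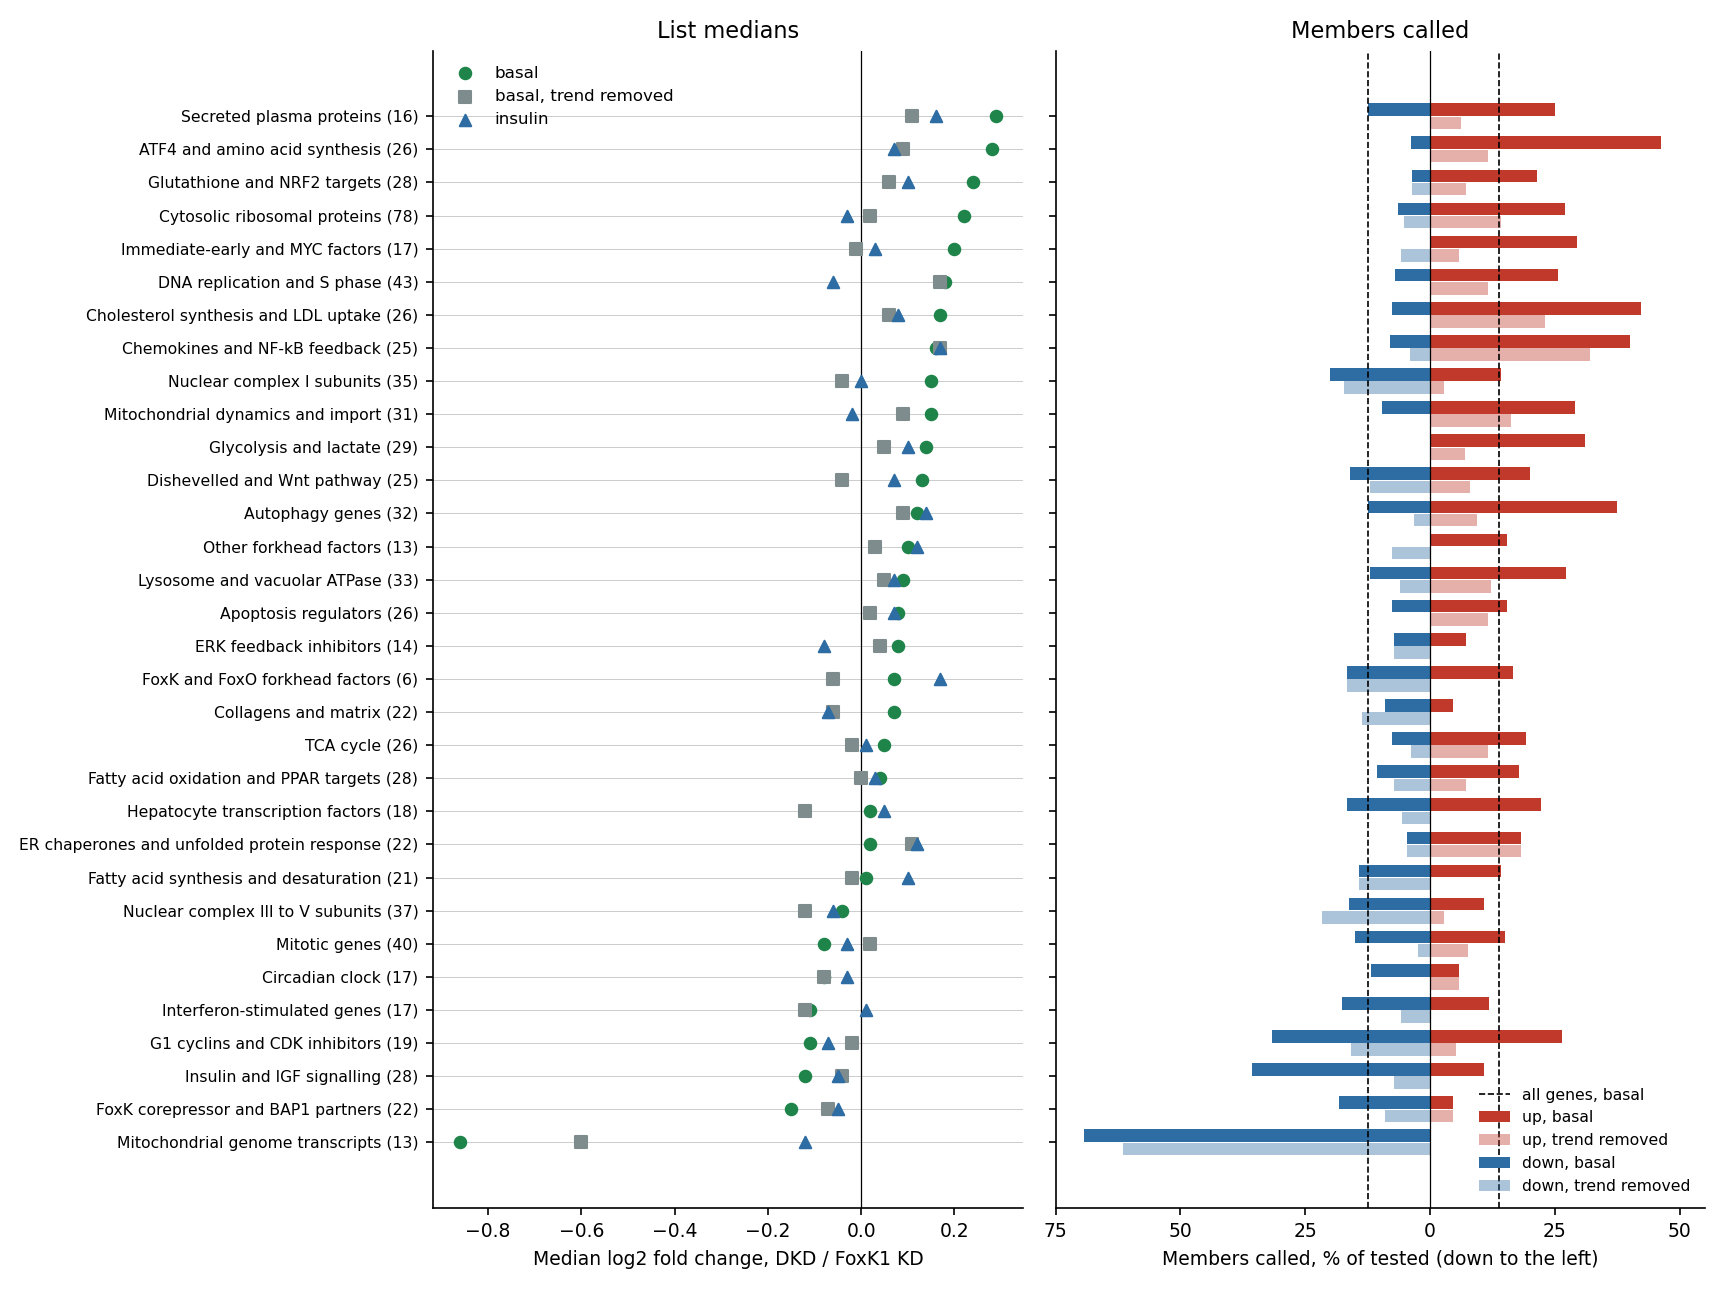
Left, median log2 fold change of DKD over FoxK1 KD in each gene list (number of tested genes in brackets) at basal, at basal with the GC and length trend removed and after insulin. Right, share of tested members upregulated (red) and downregulated (blue) at basal, paler with the trend removed, with dashed lines at the shares over all genes (13.8% and 12.5%). The median of the mitochondrial genome transcripts lies at -0.86, and at -0.6 with the trend removed.

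Among metabolic groups, cholesterol synthesis and LDL uptake genes were upregulated in 11 of 26 cases and downregulated in 2, against 13.8% and 12.5% of all genes, and in 6 and 0 with the trend removed, against 4.93% and 4.74%. Pmvk, Mvd and Fdps, which act in turn in the mevalonate pathway, rose by 0.82 (SE 0.16), 0.62 (SE 0.09) and 0.54 (SE 0.11). Mvd was at 93.1 to 112 CPM in FoxK1 KD and at 151 to 183 CPM in DKD cells, near Control at 171 CPM, but with the trend removed its 0.25 missed the threshold (adjusted p = 0.0536).

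Glycolysis and lactate genes were upregulated in 9 of 29 cases and downregulated in 0, against 13.8% and 12.5% of all genes. Once the trend was removed these counts were 2 and 0, an upregulated share near the 4.93% of all genes. Slc2a1, the glucose transporter GLUT1, rose from 56.4 to 86.7 CPM in FoxK1 KD to 111 to 137 CPM in DKD cells (0.73, SE 0.12, adjusted p = 4.78e-05), and by 0.54 with the trend removed. Eno1, an enolase, rose by 0.6 and by 0.26 in the 2 fits. Pkm and Pfkm, which encode pyruvate kinase and phosphofructokinase subunits, rose by 0.47 and 0.32 as counted, but neither their 0.15 nor their 0.11 passed with the trend removed. Genes of amino acid synthesis that respond to ATF4 rose in 12 of 26 cases and fell in 1 as counted, and in 3 and 0 with the trend removed. The median GC content of this list was 53.38%, and its upregulated count as counted was 6 without DKD replicate 1 and 7 without DKD replicate 2 or without FoxK1 KD replicate 2. Shmt2, the mitochondrial serine hydroxymethyltransferase, rose by 0.76 and Nars, the asparaginyl-tRNA synthetase, by 0.31, and both passed in both fits, whereas Phgdh, which opens serine synthesis, at 0.55 as counted and 0.22 with the trend removed, did not.

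Fatty acid genes showed no common direction. Of 21 genes of fatty acid synthesis and desaturation 3 rose and 3 fell, shares near the 13.8% and 12.5% of all genes. With the trend removed these counts were 0 and 3, against 4.93% and 4.74% of all genes. Scd2, a stearoyl-CoA desaturase, was at 3890 to 4260 CPM in FoxK1 KD and at 2860 to 3260 CPM in DKD cells (-0.4, SE 0.07, adjusted p = 7.42e-05). After insulin it did not pass (0.14, adjusted p = 0.539), and the 2 effects differed (0.54, adjusted p = 0.00234). Of 28 genes of fatty acid oxidation and PPAR targets 5 rose and 3 fell, and 2 and 2 with the trend removed. Angptl4, an inhibitor of lipoprotein lipase, rose by 0.61 and Ppard, a nuclear receptor for fatty acids, by 0.54, and with the trend removed their 0.53 and 0.42 passed as well. Ppargc1a, the coactivator of mitochondrial biogenesis, fell by 0.45 on the log2 scale as counted but its -0.14 with the trend removed did not pass.

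Genes of insulin and IGF signalling were downregulated in 10 of 28 cases and upregulated in 3, against 12.5% and 13.8% of all genes. They were 2 and 0 with the trend removed, a downregulated share near the 4.74% of all genes. Without DKD replicate 1, and likewise without FoxK1 KD replicate 2, 6 were downregulated. Pik3r3, a regulatory subunit of PI 3-kinase, fell by 0.54 and passed in both fits (adjusted p = 0.00224 and 0.0486). Akt1 and Pik3r2 rose by 0.42 and 0.44 as counted, but their 0.07 and 0.1 with the trend removed did not pass. Of the Sin3, deacetylase and BAP1 partners of FoxK factors, 1 of 22 rose and 4 fell, and 1 and 2 with the trend removed. Sin3b rose from 41.3 to 60.9 CPM to 75.5 to 92.7 CPM (0.64, SE 0.11, adjusted p = 0.000116), and Ogt, the O-GlcNAc transferase, changed by -0.71 (SE 0.14, adjusted p = 0.000394), and both passed in both fits. After insulin neither passed edgeR's test (-0.04, adjusted p = 0.955, and -0.26, adjusted p = 0.593). For Sin3b the insulin effect differed from the basal one as counted (adjusted p = 0.0161, and 0.0806 with the trend removed). The FoxO factor Foxo6 rose by 1.02 and the hepatic forkhead factors Foxa2 and Foxa3 by 0.54 and 0.52 as counted, none of them with the trend removed, and Foxa3 lost its call in 4 of the 8 fits that left out a sample. In the Wnt pathway 5 of 25 rose and 4 fell, and 2 and 3 with the trend removed, among them the ligand Wnt10a (0.77 and 0.38), the scaffold Apc (-0.59 and -0.25), the kinase Gsk3b (-0.43 and -0.21) and the effector Tcf7l2 (-0.44 and -0.42), which passed in both fits.

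Of 19 G1 cyclins and CDK inhibitors 5 rose and 6 fell, against 13.8% and 12.5% of all genes, and 1 and 3 with the trend removed. Cdkn1b, which encodes the CDK inhibitor p27, was at 263, 313, 253 and 251 CPM in FoxK1 KD and at 169, 185, 192 and 194 CPM in DKD cells. The groups did not overlap (-0.54, SE 0.1, adjusted p = 0.000249, and -0.35 with the trend removed), and after insulin Cdkn1b lay at 150 to 184 CPM in FoxK1 KD and 170 to 190 CPM in DKD cells. Trp53, the tumour suppressor p53, rose from 74.3 to 102 CPM to 125 to 148 CPM (0.57, SE 0.09, adjusted p = 2.31e-05), and its insulin effect differed from the basal one in both fits (adjusted p = 0.00293 and 0.0116). Genes of DNA replication rose in 11 of 43 cases and fell in 3, against 13.8% and 12.5% of all genes, and in 5 and 0 with the trend removed, against 4.93% and 4.74%, and their median of 0.18 stayed at 0.17. Leaving out DKD replicate 1, 2 or 3 gave 7 upregulated each time. Mcm7, of the replicative helicase, rose by 0.51 and Rfc2, of the clamp loader, by 0.54, and with the trend removed their 0.33 and 0.53 passed as well. The 40 mitotic genes split into 6 up and 6 down, and 3 and 1 with the trend removed, with the chromosomal passenger kinase Aurkb at 0.57 and the spindle protein Hmmr at -0.59.

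Of 26 apoptosis regulators 4 rose, a share near the 13.8% of all genes, and 2 fell, against 12.5%. With the trend removed these counts were 3 and 0, against 4.93% and 4.74% of all genes. Xiap, an inhibitor of caspases, fell by 0.54 on the log2 scale as counted, but its -0.06 with the trend removed did not pass.

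Genes of autophagy were upregulated in 12 of 32 cases, against 13.8% of all genes, and downregulated in 4, a share like the 12.5% of all genes. In the second fit these counts were 3 and 1, against 4.93% and 4.74%. The upregulated count was 6 without DKD replicate 1 and 7 without DKD replicate 2. Becn1, the Beclin 1 subunit of the lipid kinase that starts autophagosomes, rose from 107 to 135 CPM in FoxK1 KD to 167 to 187 CPM in DKD cells (0.59, SE 0.1, adjusted p = 8.97e-05), and by 0.71 with the trend removed. Sqstm1, the cargo receptor p62, rose by 0.43 in the main fit and by 0.22 with the trend removed. Ulk1, the initiating kinase, at 0.33 and 0.13, and Rb1cc1, its scaffold, at -0.39 and 0.04, passed as counted and not with the trend removed. Of 33 lysosomal and vacuolar ATPase genes 9 rose and 4 fell, and 4 and 2 with the trend removed, with alpha-galactosidase Gla at 0.53 and the cholesterol carrier Npc2 at 0.49 in the first group and the proton pump subunit Atp6v1d at -0.41 in the second.

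Of 22 genes of ER chaperones and the unfolded protein response 4 rose and 1 fell, against 13.8% and 12.5% of all genes. With the trend removed these counts were again 4 and 1, against 4.93% and 4.74% of all genes. Herpud1, which assists ER-associated degradation, rose by 0.57 (SE 0.09, adjusted p = 5.42e-05) and by 0.36 with the trend removed, and Hyou1 and Dnajb11, both ER chaperones, by 0.36 and 0.39. In the glutathione and NRF2 group 6 of 28 rose and 1 fell, and 2 and 1 with the trend removed, against the same shares of all genes. Gsta3, a glutathione S-transferase, was at 150 to 199 CPM in FoxK1 KD and at 221 to 261 CPM in DKD cells (0.54, SE 0.1, adjusted p = 0.000127), and at 0.75 its difference was larger with the trend removed.

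Cytosolic ribosomal protein genes, 78 of which were tested, gave 21 upregulated and 5 downregulated, against 13.8% and 12.5% of all genes. With the trend removed these counts were 11 and 4, against 4.93% and 4.74% of all genes. The median fell from 0.22 to 0.02. Leaving out DKD replicate 3, the shallowest of the 8 libraries, gave 10 upregulated, and leaving out DKD replicate 1 gave 12. Rpl23 rose from 163 to 185 CPM to 273 to 326 CPM (0.79, SE 0.12) and Rpl4 by 0.53 (SE 0.09), whereas Rpl37a was at 114 to 155 CPM in FoxK1 KD and 80.1 to 83.8 CPM in DKD cells (-0.68, SE 0.1, adjusted p = 2.63e-05), with -1.08 once the trend was removed. After insulin Rpl37a did not pass edgeR's test (0.1, adjusted p = 0.863). Its insulin effect differed from the basal one (0.77, adjusted p = 0.00421, and 1.18, adjusted p = 2.97e-05 with the trend removed). Ribosomal protein genes have many processed pseudogenes, and whether reads shared with such copies were counted is not given in the sources used here, so that their values are uncertain.

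Of 18 hepatocyte transcription factors 4 rose and 3 fell, against 13.8% and 12.5% of all genes, and 0 and 1 with the trend removed. Of 16 secreted plasma proteins 4 rose and 2 fell, and C3 was the 1 that passed with the trend removed. The retinol carrier Rbp4 (0.46 and 0.13) and apolipoprotein B Apob (-0.65 and -0.27) passed as counted only. Collagens and matrix genes gave 1 up and 2 down of 22, and 0 and 3 with the trend removed. The circadian clock gave 1 up and 2 down of 17, and 1 and 0 with the trend removed, with the clock repressor Bhlhe40 at 0.24, and 0.19 with the trend removed, passing in both.

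Many of the large fold changes lay in rarely counted genes and pseudogenes. Of 251 pseudogenes tested 62 were upregulated (24.7%) and 7 downregulated (2.79%), against 13.8% and 12.5% of all genes, and 41 and 10 with the trend removed, against 4.93% and 4.74%. Gm42939 (chromosome 3), annotated as a sense intronic transcript, had no count in the 4 FoxK1 KD libraries and 4.59, 10.2, 11.1 and 13.1 CPM in the DKD libraries, at least 50.1-fold higher against a floor of 3 counts over the group. It averaged close to 0 in Control (0.0709 CPM) and FoxK2 KD cells (0 CPM) at basal and at 7.39 to 10.8 CPM in insulin-treated FoxK1 KD cells. The processed pseudogenes Gm12922 and Gm12960, likewise without a count in FoxK1 KD, were at least 28.4-fold and 23.4-fold higher. Rps2-ps10 (0 to 0.66 CPM in FoxK1 KD, 4.59 to 12 CPM in DKD) and Gm8141 (0 to 0.66 and 2.62 to 13.5 CPM) were close to 0 in FoxK1 KD as well. Annotated as protein-coding but named as pseudogenes or related sequences, Rpl36a-ps1, Ftl1-ps1 and Tpm3-rs7 rose by 4.24, 1.69 and 1.8. Gm42939, Gm12922 and Gm12960 were thus counted in basal DKD and in insulin-treated libraries and hardly in the other basal groups. Rps2-ps10 and Gm8141 followed the same split. Rps2-ps10 averaged at most 0.224 CPM in the other basal groups, 7.64 in basal DKD and 9.43 to 12.2 in the insulin-treated groups. Gm8141 averaged at most 0.427, 6.25 and 2.81 to 8.74 CPM in that order. Ftl1-ps1 averaged 5.94 to 7.88, 19.7 and 19.2 to 23.4 CPM. Rpl36a-ps1 and Tpm3-rs7 averaged 1.66 to 8.79 and 3.77 to 5.66 CPM after insulin, between the other basal groups and basal DKD. Some genes reported above had the same split, here picked after their values were seen. Cdkn1b averaged 266 to 272 CPM in the other basal groups, 185 in basal DKD and 166 to 193 in the insulin-treated groups. Rpl37a averaged 131 to 158, 82.2 and 87.3 to 96.7 CPM in that order. Foxk2 and C3 did not follow the split. The part of this split in the other results was not tested.

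Of the other protein-coding genes with the largest rise, Prss8, a membrane serine protease, went from 0.66 to 1.81 CPM to 2.87 to 5.24 CPM (1.84, SE 0.38, adjusted p = 0.00063), Mrc1, the mannose receptor, from 0.99 to 1.36 CPM to 2.05 to 4.63 CPM (1.32) and Aebp1 from 0.679 to 1.61 CPM to 1.85 to 5.24 CPM (1.61), each also with the trend removed. Aebp1 lost its call when 1 of the 8 samples was left out (adjusted p up to 0.0562). Fbxl15 (1.43), Tmem191c (1.38) and B630019K06Rik (1.44) did not pass with the trend removed. Among those that fell, Gm4924 (-1.35), the zinc finger gene Zfp420 (-1.22), 2300009A05Rik (-1.1) and Sned1 (-1.08) passed in both fits, while Serpini1 (-1.4) and Camta1 (-1.31) passed as counted only. Camta1 and B630019K06Rik lost their calls in 7 and 5 of the 8 fits that left out a sample. Other downregulated transcripts were the small nucleolar RNA Snord49a (12.5 to 41.6 CPM against 2.87 to 8.73 CPM), Gm10925 on chromosome 1, which at 4.82 to 26.4 CPM varied widely within FoxK1 KD, and Gm43980 (-1.55).

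Of 18 genes taken from the study's text, most did not separate DKD from FoxK1 KD cells in both fits. The study counted basal changes in DKD cells against Control, and its heatmap of top genes covers all groups. The contrast here is with FoxK1 KD cells, so a gene already changed by FoxK1 knockdown alone need not differ. The results below therefore do not test the study's own comparison. In mouse liver, the study also reported lower Vcam1, Aff4 and Tgoln1 mRNA and higher Mcam, Adgrg1 and Sgk1 mRNA after FoxK1 deletion, which was not tested here. Of 6 named as higher in DKD cells, the autophagy gene Wdr45 rose (0.46, adjusted p = 0.00852, but 0.22 and adjusted p = 0.202 with the trend removed), and Ccnd1 (0.06), Sgk1 (-0.03), Adgrg1 (0.07), Mcam (-0.33) and Alpl (0.01) did not pass. Of 6 named as lower in DKD cells, Scd2 and mt-Nd6 fell in both fits and Aff4 (-0.24) as counted only. Scd1 (0.07), Vcam1 (0.14) and Tgoln1 (0.17) did not pass as counted, whereas Vcam1 and Tgoln1 were upregulated with the trend removed (0.4 and 0.33). After insulin Vcam1, an adhesion molecule, was upregulated (0.41, adjusted p = 0.0179), as was Scd1, a desaturase (0.35, adjusted p = 0.0456). Of 6 genes named for mitochondria and the cell cycle, among them Cdkn1b and Ccng2 for FoxK1 at their promoters, Mtch1, Letm1 and Cdkn1b changed as given above, and Tomm22 (-0.26), Mfn2 (0.19) and Ccng2 (-0.21) did not pass. The first 12 were picked by the study on these libraries and are not independent of them. The same holds for Tomm22, Mfn2, Letm1 and Mtch1, which the study named from its transcriptome data.

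Whether the effect of FoxK2 siRNA depended on FoxK1 was asked by the interaction at basal, which compares DKD against FoxK1 KD with FoxK2 KD against Control. The second comparison called 43 genes (0.378%), 24 up (0.211%) and 19 down (0.167%). The interaction called 1405 (12.4%), 773 positive (6.8%) and 632 negative (5.56%), or 296 (2.6%) with the trend removed, 167 (1.47%) and 129 (1.13%). Its log2 values correlated with GC content at rho = 0.57. As in the basal contrast, a difference in library composition and a dependence on FoxK1 cannot be told apart by this design. Kdm6a, the X-linked H3K27 demethylase UTX, had the smallest adjusted p. It was at 151, 174, 138 and 164 CPM in FoxK1 KD and at 78.1, 81.2, 79.6 and 92.9 CPM in DKD cells, without overlap (-0.91, SE 0.09, adjusted p = 7.25e-08). In Control and FoxK2 KD cells Kdm6a stood at 144 and 164 CPM, and the interaction was -1.09 (adjusted p = 4.44e-06, and 0.000115 with the trend removed). After insulin both genotypes lay between 88.7 and 110 CPM, and the insulin effect differed from the basal one (1, adjusted p = 6.46e-05).

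The inward rectifier potassium channel gene Kcnj16 followed, at 504 to 637 CPM in FoxK1 KD and 367 to 398 CPM in DKD cells, with an interaction of -0.87 (adjusted p = 4.66e-05). The small GTPase gene Arf5 (0.87) and Mvd (0.86) had the interactions of smallest adjusted p in the other direction, with the pseudogene Gm7901 (2.83). With the trend removed the interactions of Arf5 and Mvd were smaller, at 0.4 and 0.44 (adjusted p = 0.0368 and 0.0391), and the basal difference of Arf5 went from 0.72 to 0.31. Arf5 averaged 96.6 CPM in FoxK1 KD cells against 119 in Control, 107 in FoxK2 KD and 160 in DKD cells. Between treatments, Selenof, a selenoprotein of the ER (0.86), and Rybp, of Polycomb complexes (1.09), had, with Kdm6a, the smallest adjusted p among genes whose difference was higher after insulin. Selenof was at 397 to 526 CPM in FoxK1 KD and 293 to 342 CPM in DKD cells at basal, and at 271 to 295 and 339 to 348 CPM after insulin, where the difference of 0.29 did not pass the test (adjusted p = 0.264).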

How the data were processed

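RNA-seq libraries of AML12 cells were sequenced on a HiSeq2500 after poly(A) selection. Per the submitters' processing notes, CASAVA 1.8, STAR 2.4.2a and featureCounts were used with GRCm38.p4, and the authors deposited raw counts per gene. Strand, treatment of multimapped reads and annotation release are not given in the sources used here. Counts were fitted with edgeR 4.0.16 (R 4.3.3) in 1 model of 30 samples in 8 groups, with TMM factors and filterByExpr, which left 11368 genes, and tested by edgeR's quasi-likelihood method, with p-values adjusted by Benjamini-Hochberg over all of them and called below 0.05. Standard errors were derived as |log2 fold change| over the root of the F statistic. In a second fit, each library's trend on GC content and transcript length, by splines with 5 degrees of freedom each, was removed as an offset. The fit was tested on simulated data. DESeq2 1.42.0, limma-voom (limma 3.58.1), other normalizations and filters, the study's threshold of 0.25 and leaving out each sample were alternatives.

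Genes were named by a rule: Foxk1 and Foxk2, 18 genes from the study's text, the 10 protein-coding and 3 other genes with the largest change each way (called, at least 1 on the mean log2-CPM scale, no overlap between samples), up to 4 called members per list with the smallest adjusted p, and up to 3 genes each way per interaction. The members and lists were chosen with earlier results of these data known. Within the 4 DKD and within the 4 FoxK1 KD basal libraries, none was a copy of another. Other pairs of libraries were not checked for copies. Some genes that the rule names are not reported here.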

Additional observations from a re-analysis of the deposited data

Results flagged for a closer look

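Of 246 groups of 4 samples examined for 123 named genes, 10 held a sample far from the other 3 of its group, where chance gives about 1 in 20. FoxK1 KD replicate 2 was such a sample for Ndufb7 (12.5 CPM against 23 to 23.3), Mvd (93.1 against 109 to 112) and Cox7b (59.7 against 38.5 to 39.6). In the other FoxK1 KD replicates this held for mt-Nd6 in replicate 1 (323 CPM against 256 to 263) and Igf1r in replicate 4 (189 against 172 to 174). Among DKD samples it held for Ogt (227 CPM against 273 to 280) and Tcf7l2 (30.1 against 37.5 to 38.1) in replicate 1, Timm50 in replicate 3 (68 against 52.9 to 54.7), and Gm4924 (4.62 against 2.31 to 2.58) and Phgdh (309 against 349 to 354) in replicate 4.

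The interaction of FoxK2 siRNA with FoxK1 knockdown passed edgeR's test for Kdm6a (-1.09 on the log2 scale), Ccl2 (-1.07) and Kcnj16 (-0.87). It also passed for Mvd (0.86, and 0.44 with the GC and length trend removed), Arf5 (0.87, and 0.4) and Gm7901 (2.83). Such an interaction and a difference in library composition of the basal DKD samples cannot be told apart by this design. The difference between DKD and FoxK1 KD was not the same after insulin as at basal for Kdm6a (1, insulin minus basal), Selenof (0.86), Rybp (1.09), the sense intronic transcript Gm42939 (-7.91) and the processed pseudogenes Gm12922 (-7.65) and Gm12960 (-7.19), the last 3 of which have fitted values that depend on the prior count.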

How the results depend on the processing

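With the GC and length trend removed, 560 genes were upregulated and 539 downregulated at basal, against 1565 and 1426. An adjusted p below 0.25 gave 2998 and 2722, and a fold change above 1.5 gave 451 and 231. After insulin, against 22 up and 18 down, these were 151 and 133 below 0.25, 10 and 10 with the fold change, 60 and 50 without a filter and 39 and 69 with only the groups compared, and 28 down with DESeq2 and 31 down with the trend removed. The interaction with FoxK1 knockdown (1405) became 296 with the trend removed, 4195 below 0.25, 685 with the fold change and 787 with only the groups compared. The interaction with insulin (699) became 164, 2823, 397 and 1345 in the same order. Leaving out a sample gave 1022 to 1406 up and 1033 to 1411 down at basal (1022 without FoxK1 KD replicate 2, 1060 without DKD replicate 1), 7 to 18 up and 5 to 17 down after insulin, 717 to 1851 for the interaction with FoxK1 knockdown and 222 to 783 for that with insulin, where leaving out DKD insulin replicate 2 gave 222.

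Replicate numbers did not pair the samples: same-numbered DKD and FoxK1 KD basal samples correlated at 0.0418, -0.0485, -0.0539 and -0.0973. With the replicate block, 1550 genes were upregulated and 1401 downregulated at basal, 19 and 15 after insulin. With the block Gm12960 had 0.05 after insulin.

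With the trend removed the sign changed for Rb1cc1 (0.04), Aff4 (0.06), Ccnd1 (-0.02), Adgrg1 (-0.17) and Alpl (-0.27), the last also without a filter and with protein-coding genes only (-0.01 each) and when a sample was left out (-0.09 to 0.1). Sgk1 ranged from -0.07 to 0.01 when a sample was left out. Gm12960 after insulin was 0.01 with limma-voom and -0.36 to 0.18 without single samples. The cause was not tested. Depth limits genes of a few CPM, where 1 count is a large share of the value.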
